A study of Mus musculus with 8 samples.

Results

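The nuclear receptors are transcription factors that bind DNA through a conserved zinc finger domain and, in many members, a small lipophilic ligand through a second domain. A list of 36 nuclear receptor genes was taken by symbol from the count table of 19348 genes, and all 36 were present. The transcripts were measured by RNA-seq in liver and in epididymal white adipose tissue (eWAT), the fat pad along the epididymis, of male C57BL/6 mice aged 12 weeks. In each tissue 2 libraries came from Crtc1+/+ littermates and 2 from mice labelled Crtc1-/-, which gave 8 libraries in 4 groups. The Crtc1-/- line was made with CRISPR/Cas9 guides directed at exons 2 and 4, so the gene was targeted in the whole animal and not in a single cell type. All mice were fasted for 16 h before collection and none received a further treatment.

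CRTC1 is a coactivator that joins the transcription factor CREB at cAMP response elements, and CREB targets include the NR4A orphan receptors. A group of the non-steroid nuclear receptors binds DNA as heterodimers with a retinoid X receptor (RXR), namely the liver X receptors (LXR), the retinoic acid receptors (RAR), the thyroid hormone receptors, the vitamin D receptor, the PPARs, the constitutive androstane receptor (CAR) and the pregnane X receptor (PXR), while others such as HNF4A, the ERRs, the RORs and the NR4A receptors bind mainly as homodimers or monomers. In liver, HNF4A, LRH-1, CAR and PXR are known for their part in hepatocyte identity, bile acid and drug metabolism, while LXRs sense oxysterols in both liver and fat. Steroid receptors such as the glucocorticoid receptor act mostly as homodimers and change adipocyte and hepatocyte metabolism during fasting.

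Crtc1 itself was not lower in the libraries labelled Crtc1-/-. Its level was 11.7 and 9.86 CPM (counts relative to the library total, scaled by TMM within each tissue) in Crtc1+/+ liver against 22.1 and 18 CPM in the liver of mice labelled Crtc1-/-. In eWAT it was 32.6 and 33.7 CPM in Crtc1+/+ mice against 58.5 and 33.6 CPM in the others. A count over the whole gene does not separate the targeted exons from the others, so it does not check the label. Totals ran from 16560085 to 19721481 estimated counts a library. The labelled tissues were checked against marker genes, and the eWAT libraries stood apart from each other. Epididymis markers took 8.05% and 9.31% of counts in the Crtc1+/+ eWAT libraries against 0.00237% and 0.00121% in those labelled Crtc1-/-. Adipocyte markers took 0.278% and 0.457% in Crtc1+/+ eWAT against 4.62% and 2.14% in eWAT labelled Crtc1-/-, and endothelial markers 0.0326% and 0.0319% against 0.397% and 0.206%. Smooth muscle markers took 0.577% and 0.331% against 0.148% and 0.0814%, macrophage markers 0.0345% and 0.0193% against 0.133% and 0.0546%, and lymphocyte markers 0.0091% and 0.000358% against 0.00317% and 0.00076%. Hepatocyte markers took 11.5% in the second eWAT library labelled Crtc1-/-. Their share was 0.191% to 0.857% in the remaining 3 libraries of that tissue and 21.1% to 24.8% in liver. In bulk tissue, fewer cells of a type and less RNA per cell cannot be told apart, and the part of these differences in the results was not tested.

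Promoter windows of 300 bases, from 250 before to 50 after the annotated start, were read from the RefSeq table for GRCm38.p6, which held 33 of the 36 receptors in 51 windows. The first windows shown are those of 4 receptors that were higher in eWAT labelled Crtc1-/-, since these genes moved together. Each is written 5′ to 3′, and capitals mark AGGTCA, the core that an RXR heterodimer binds, or its reverse complement TGACCT.
Nr1h3, chr2:91195067-91195366, minus strand: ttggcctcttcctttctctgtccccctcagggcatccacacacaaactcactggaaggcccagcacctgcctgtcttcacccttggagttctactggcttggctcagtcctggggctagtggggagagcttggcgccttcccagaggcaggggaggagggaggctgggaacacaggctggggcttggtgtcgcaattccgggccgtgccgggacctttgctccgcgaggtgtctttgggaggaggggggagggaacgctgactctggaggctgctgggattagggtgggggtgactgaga
Rxra, chr2:27709042-27709341, plus strand: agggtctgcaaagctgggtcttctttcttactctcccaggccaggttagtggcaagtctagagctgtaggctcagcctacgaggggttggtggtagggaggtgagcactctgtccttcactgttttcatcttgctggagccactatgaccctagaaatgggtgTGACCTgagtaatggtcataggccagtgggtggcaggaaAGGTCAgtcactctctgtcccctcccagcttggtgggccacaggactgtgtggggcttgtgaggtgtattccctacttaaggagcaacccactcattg
Rxrg, chr1:167618015-167618314, plus strand: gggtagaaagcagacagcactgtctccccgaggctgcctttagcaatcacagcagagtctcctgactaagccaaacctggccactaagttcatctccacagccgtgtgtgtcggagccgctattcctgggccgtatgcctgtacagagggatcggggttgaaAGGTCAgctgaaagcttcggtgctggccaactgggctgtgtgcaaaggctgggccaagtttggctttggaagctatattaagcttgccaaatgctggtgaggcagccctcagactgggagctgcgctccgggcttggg
Rarg, chr15:102257473-102257772, minus strand: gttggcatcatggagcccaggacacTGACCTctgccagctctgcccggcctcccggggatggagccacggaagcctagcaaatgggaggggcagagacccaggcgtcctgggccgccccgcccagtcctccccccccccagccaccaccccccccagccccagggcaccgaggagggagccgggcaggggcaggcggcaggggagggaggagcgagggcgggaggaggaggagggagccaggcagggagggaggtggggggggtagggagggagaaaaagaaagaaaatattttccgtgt
The Nr1h3 window held no AGGTCA on either strand, and the windows of Rxra, Rxrg and Rarg were shown in place of the other annotated start of each gene because they hold it. Rxra held 2 copies, which start at -87 and -48 from the first transcribed base (position 0), Rxrg held 1 at -88, and Rarg held 1 at -225. The core occurred in 15.7% of the 51 receptor windows and in 16.3% of all 32851 promoter windows. Direct repeats of AGGTCA with 1 base (DR1) or 4 bases (DR4) between the copies were in 0 of the receptor windows and in 0.0396% and 0.0152% of all windows.

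The CREB core TGACG, which lies within the palindrome TGACGTCA, was searched on both strands in the same windows. The window of Nr4a1 is shown because it holds 4 copies, and capitals mark TGACG or its reverse complement CGTCA.
Nr4a1, chr15:101266596-101266895, plus strand: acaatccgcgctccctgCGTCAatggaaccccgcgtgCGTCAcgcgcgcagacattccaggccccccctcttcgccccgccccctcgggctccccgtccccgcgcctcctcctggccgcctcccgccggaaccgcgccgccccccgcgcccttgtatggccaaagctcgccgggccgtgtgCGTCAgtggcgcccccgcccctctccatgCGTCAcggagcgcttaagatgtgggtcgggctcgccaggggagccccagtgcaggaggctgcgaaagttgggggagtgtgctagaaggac
The copies start at -233, -213, -69 and -40 in Nr4a1. Nr4a2 and Nr4a3, the other members of that subfamily, also held 4 each, from -200 to -111 and from -231 to -147. In all, 29.4% of the receptor windows, from 13 of 33 genes, held the core against 20.8% of all windows. The receptor windows had a median GC content of 59.3% against 52.7% over all windows, and the core itself holds a CG. The part of GC content in that difference was not tested. The full palindrome was found in 1 receptor window (1.96%), that of Nr6a1, against 1.79% of all windows. A match to these letters is a description of the sequence and does not show binding.

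The level of each receptor was compared between tissues on the FPKM scale, which divides by transcript length. In liver the 5 receptors with the highest mean FPKM were Hnf4a at 118, Nr1h3 at 100, Nr1i3 at 78.9, Rxra at 78.7 and Nr2f6 at 47.7. These encode HNF4A, which drives hepatocyte genes, LXRα, CAR, RXRα and the orphan repressor EAR2. By group, Hnf4a led in Crtc1+/+ liver with a mean of 137, while in liver labelled Crtc1-/- Nr1h3 stood at 102 and Hnf4a at 100. In eWAT the order was Nr1h3 at 64 FPKM, Nr1h2 at 61.3, Thra at 48.8, Rxra at 45.8 and Rarg at 42, where Nr1h2 encodes LXRβ, Thra the thyroid hormone receptor α and Rarg the retinoic acid receptor γ. These eWAT means cover libraries that differed widely, since Nr1h3 stood at 16.8 and 10.3 FPKM in Crtc1+/+ eWAT and at 119 and 110 in eWAT labelled Crtc1-/-. By group, Nr1h2 led in Crtc1+/+ eWAT with a mean of 59.6, then Nr2f6 at 37.8. Nr1h3 led in eWAT labelled Crtc1-/- at 114. The summed FPKM of the 36 receptors was 539.2 to 604.6 in the 4 liver libraries, 336 and 265.6 in Crtc1+/+ eWAT, and 627.3 and 608.1 in eWAT labelled Crtc1-/-. The 2 eWAT groups did not overlap in this sum. On this scale the eWAT libraries labelled Crtc1-/- lay above every liver library. FPKM carry no TMM scaling. TMM factors over the 8 libraries were 0.627 to 0.676 in liver and 1.68 and 1.21 in these eWAT libraries. The order of the tissues in this sum therefore depends on the scaling.

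**Figure D1:**
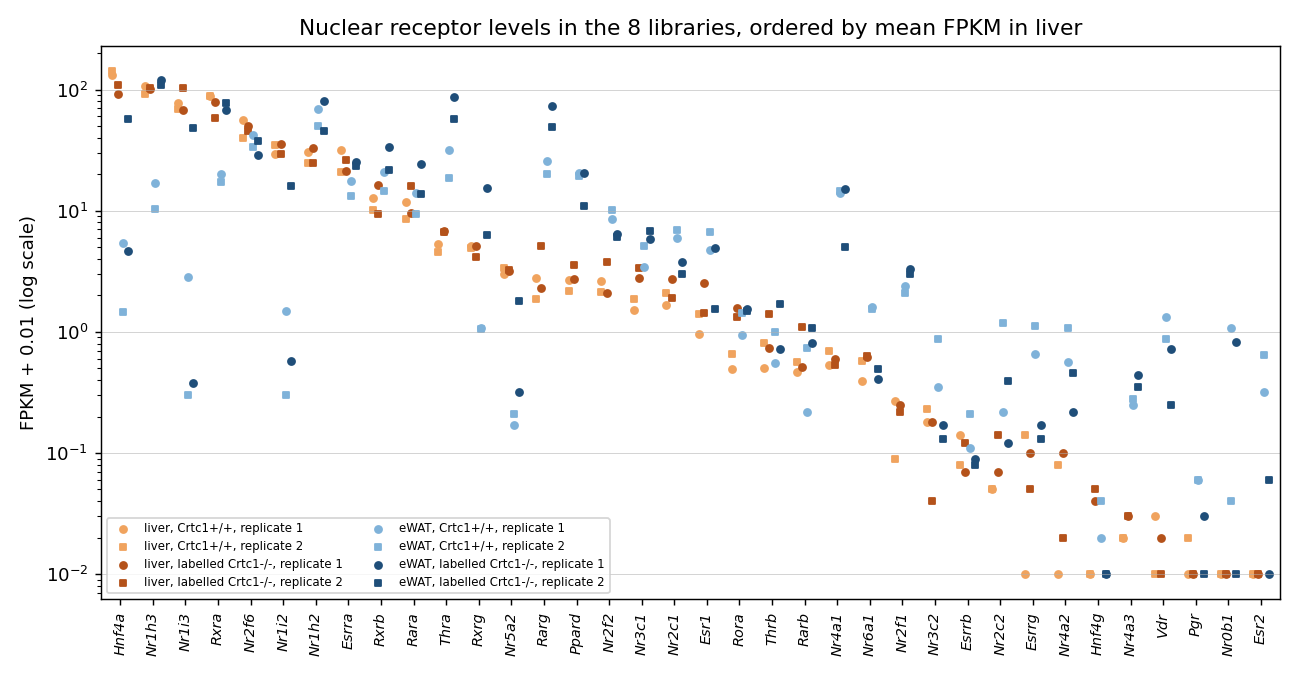
FPKM plus 0.01 (log scale) of the 36 nuclear receptors in each of the 8 libraries, with tissue and labelled genotype by colour and replicate by symbol. Hnf4a led in liver with a mean of 118 over both genotypes, and Nr1h3 ran from 10.3 to 119 across the eWAT libraries.

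At the other end, 6 receptors had 3 counts or fewer in every liver library of both genotypes: Nr0b1 (DAX-1), Nr4a3, Esr2 (oestrogen receptor β), Hnf4g, Pgr (progesterone receptor) and Vdr (vitamin D receptor). Esr2 had 0 FPKM in each of the 4 liver libraries, and 0.31, 0.63, 0 and 0.05 FPKM in eWAT, where the first pair is Crtc1+/+. Vdr had at most 0.02 FPKM in liver against 1.32 and 0.86 in Crtc1+/+ eWAT and 0.71 and 0.24 in eWAT labelled Crtc1-/-. Hnf4g stayed at 3 counts or fewer in all 8 libraries.

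Within eWAT, 33 of the 36 receptors had enough counts to be tested by genotype, and 5 were called at an adjusted p under 0.05 (edgeR quasi-likelihood test, Benjamini-Hochberg adjustment over all genes tested). All 5 were higher in the libraries labelled Crtc1-/-, and 0 were lower. The share called was 15.2% of the receptors against 12.2% of all 15391 genes. By direction, 15.2% of the receptors against 6.65% of all genes were higher, and 0 receptors against 5.54% of all genes were lower. The median log2 fold change was 0.82 over the 33 receptors and -0.05 over all genes tested. The same number, 5, passed the threshold of the study (a log2 fold change above 1 in size and p under 0.01 before adjustment), as did 15.9% of all genes.

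Among the RXRs, Rxra encodes the form that is abundant in liver and fat and lies at chr2:27676445-27763319. It measured 82.2 and 73.1 CPM in Crtc1+/+ eWAT and 325 and 451 CPM in eWAT labelled Crtc1-/-. The groups were well apart, and the rise was 2.32 on the log2 scale (SE 0.34, adjusted p = 0.0251 by edgeR). Rxrg, RXRγ, at chr1:167598362-167639623, measured 1.45 and 1.5 CPM in Crtc1+/+ eWAT against 24 and 11.8 CPM in eWAT labelled Crtc1-/-. It rose by 3.60 on the log2 scale (SE 0.56, adjusted p = 0.0268 by edgeR), and its 2 high libraries differed from each other by a larger ratio than those of Rxra. Rxrb, RXRβ, the form most tissues express, measured 41.8 and 30.5 against 79.1 and 61.8 CPM. It was not called by edgeR (0.96, SE 0.32, adjusted p = 0.111), while DESeq2 called it higher.

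Nr1h3, LXRα, at chr2:91184061-91202829, measured 24.1 and 15.2 CPM in Crtc1+/+ eWAT and 197 and 222 CPM in eWAT labelled Crtc1-/-. Both libraries labelled Crtc1-/- were high, and the rise of 3.41 on the log2 scale (10.7-fold, SE 0.37, adjusted p = 0.017 by edgeR) had the lowest adjusted p of the receptors. Nr1h2, its paralogue LXRβ, at chr7:44549616-44553968, measured 114 and 84.7 against 152 and 106 CPM. The groups of Nr1h2 overlapped, and its log2 fold change was 0.37 (SE 0.33, adjusted p = 0.454).

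Thra, at chr11:98740776-98769006, measured 64.3 and 39.4 CPM in Crtc1+/+ eWAT against 206 and 162 CPM in eWAT labelled Crtc1-/-, a rise of 1.83 on the log2 scale (SE 0.37, adjusted p = 0.0419 by edgeR). Exons of Thra share 263 bases, 5.7% of their length, with Nr1d1 on the opposite strand in the GENCODE annotation. Since the sources used here do not state strand-specific counting, reads from these bases cannot be assigned to either gene. Thrb, the other thyroid hormone receptor, measured 3.18 and 5.5 against 4.51 and 12.7 CPM, with overlapping groups, and was not called (adjusted p = 0.356). Rarg, at chr15:102234938-102257522, measured 59.6 and 48.4 CPM against 196 and 158 CPM, and rose by 1.71 on the log2 scale (SE 0.30, adjusted p = 0.032 by edgeR). Rara and Rarb, the other retinoic acid receptors, had log2 fold changes of 0.98 (adjusted p = 0.137) and 1.33 (adjusted p = 0.302) and were not called.

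**Figure D2:**
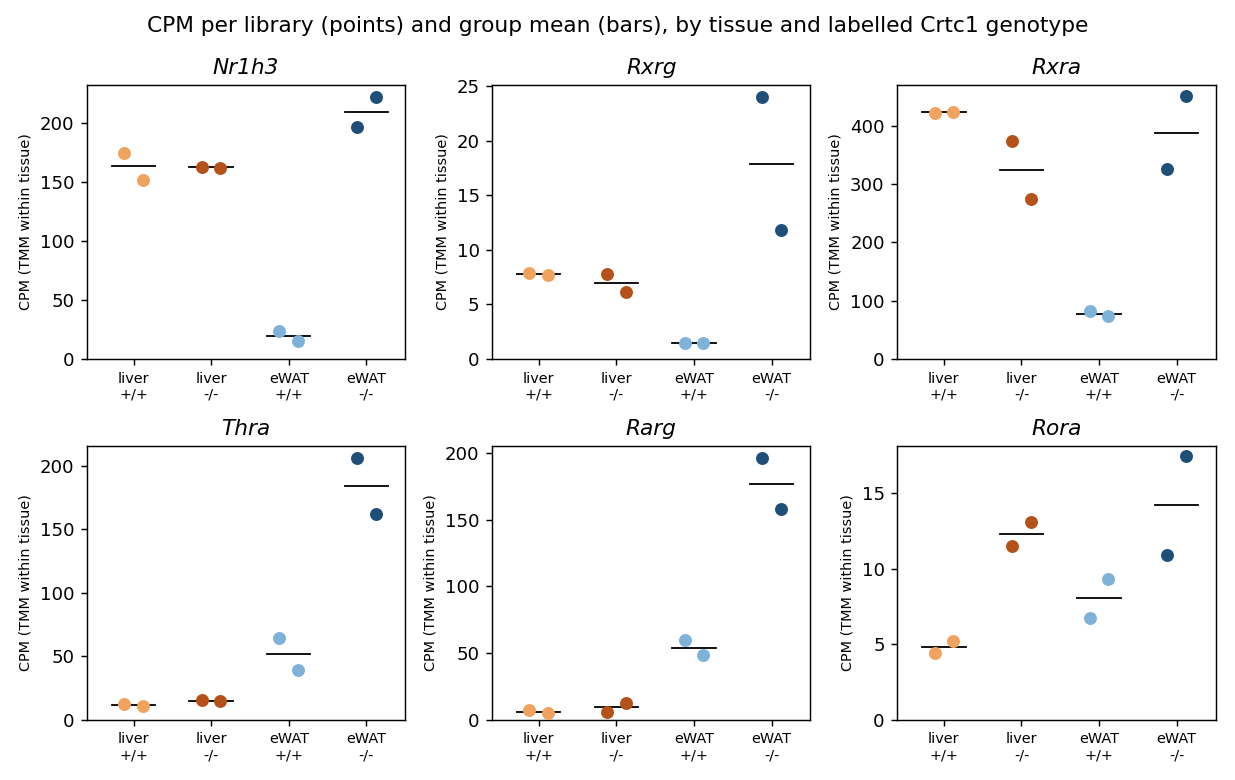
CPM of 6 receptors in each library (points) with the group mean (bars), by tissue and labelled Crtc1 genotype; CPM were scaled within each tissue and are not compared between tissues. Both eWAT libraries labelled Crtc1-/- lay above both Crtc1+/+ libraries for Nr1h3, Rxrg, Rxra, Thra and Rarg, and both liver libraries labelled Crtc1-/- lay above both Crtc1+/+ libraries for Rora (11.5 and 13.1 against 4.42 and 5.19 CPM).

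In the libraries where these 5 receptors were higher, adipocyte and endothelial markers were also higher and epididymis markers lower than in Crtc1+/+ eWAT. Between the libraries labelled Crtc1-/-, adipocyte and endothelial shares were higher in the first. Rxrg, Thra and Rarg were higher in the first as well, and Rxra and Nr1h3 in the second. The part of the marker shares in these calls was not tested. Without the second eWAT library labelled Crtc1-/-, in which hepatocyte markers were high, the same 5 receptors were called. Without the first library labelled Crtc1-/-, Hnf4a, Nr1i2, Nr1i3 and Nr5a2 were called as well, and more of all genes were called. Without either the first or the second Crtc1+/+ library edgeR called no receptor and no gene at all.

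The 4 receptors best known from hepatocytes had point estimates in eWAT within or above the range of the called receptors, from 2.94 to 4.39, with larger errors. Hnf4a, at chr2:163506811-163572907, measured 19.8 and 5.5 CPM in Crtc1+/+ eWAT and 19.7 and 290 CPM in eWAT labelled Crtc1-/-, so a single library was high. Its log2 fold change of 3.61 (SE 1.40, adjusted p = 0.149) did not pass by edgeR. DESeq2 called Hnf4a, Nr1i2 and Nr5a2 higher, but not Nr1i3. Nr1i3, CAR, at chr1:171213934-171218845, measured 3.08 and 0.415 against 0.495 and 73.2 CPM (4.39, SE 2.20, adjusted p = 0.227). Nr1i2, PXR, measured 2.89 and 0.57 against 1.32 and 43.9 CPM (3.70, SE 1.72, adjusted p = 0.204). Nr5a2, LRH-1, measured 0.626 and 0.83 against 1.43 and 9.86 CPM (2.94, SE 1.09, adjusted p = 0.139).

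The high values of these 4 receptors were in the library with high hepatocyte markers. There, as a percent of the liver mean FPKM, Hnf4a stood at 47.9%, Nr1i2 at 49.8%, Nr5a2 at 56.5% and Nr1i3 at 60.7%, and the 13 hepatocyte markers had a median of 54.2% with a range of 35.9% to 66.7%. In the other 3 eWAT libraries the marker medians were 3.47%, 0.39% and 0.668%, and the 4 receptors lay between 0.368% (Nr1i3) and 9.73% (Nr5a2). The marker Cyp2e1, named here after its value was seen, stood at 47% in the first library labelled Crtc1-/-. Without the second library labelled Crtc1-/- the log2 fold changes were 0.64 for Hnf4a, -0.38 for Nr1i2, -1.79 for Nr1i3 and 0.93 for Nr5a2, and none of the 4 was called. Rxra and Nr1h3, which are also abundant in liver, stood at 86.7% and 119% of the liver mean in the first eWAT library labelled Crtc1-/-. The hepatocyte marker median there was 0.668%. In the second library Rxra and Nr1h3 stood at 98.9% and 110%. These percents are of FPKM without TMM scaling. With TMM, eWAT minus liver in mice labelled Crtc1-/- was -1.01 (SE 0.38) for Rxra and -0.92 (SE 0.34) for Nr1h3 on the log2 scale.

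**Figure D3:**
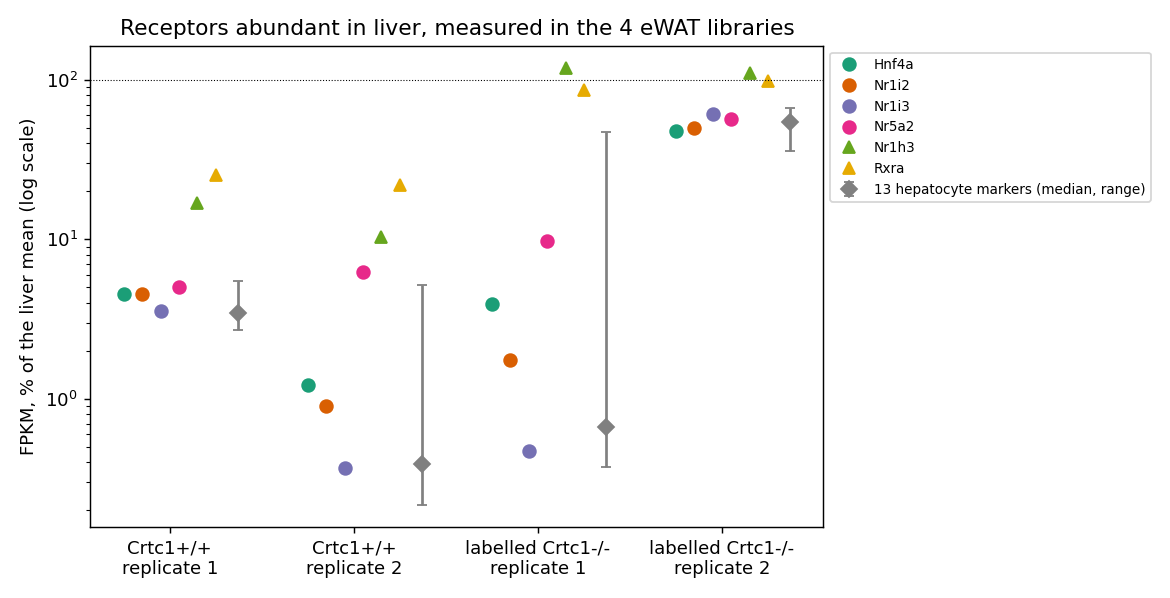
FPKM of 6 receptors in the 4 eWAT libraries as a percent of the liver mean (log scale; dotted line, 100%), beside the median and range of 13 hepatocyte markers. In the second library labelled Crtc1-/- the 4 hepatocyte receptors stood at 47.9% to 60.7% and the marker median at 54.2%. Nr1h3 and Rxra (triangles) were high in both libraries labelled Crtc1-/-, on FPKM without TMM scaling.

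The remaining receptors tested in eWAT were not called by edgeR. Of these, DESeq2 called Esrra higher and Esrrg and Nr6a1 lower. Among the steroid receptors, Nr3c1, the glucocorticoid receptor, measured 18.9 and 29.2 CPM against 36.8 and 52.1 CPM (0.89, SE 0.38, adjusted p = 0.178). Nr3c2, the mineralocorticoid receptor, had a log2 fold change of -1.82 (SE 0.79, adjusted p = 0.182) at levels of 0.625 to 3.47 CPM. Esr1, oestrogen receptor α, measured 24.8 and 35.8 against 29.9 and 10.6 CPM, with overlapping groups. Of the oestrogen-related receptors, which act on mitochondrial genes, Esrra measured 29.6 and 24 against 50.6 and 54.3 CPM (0.97, SE 0.29, adjusted p = 0.0917). Esrrg measured 2.94 and 5.24 against 0.824 and 0.764 CPM (-2.35, SE 0.68, adjusted p = 0.0853). Neither passed the edgeR test, although the groups of both did not overlap.

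The orphan receptors and Ppard showed smaller differences or wider errors. Nr6a1, the germ cell nuclear factor, measured 8.28 and 8.04 CPM in Crtc1+/+ eWAT and 2.36 and 3.54 CPM in eWAT labelled Crtc1-/- (-1.47, SE 0.51, adjusted p = 0.125). The sperm and testis markers took 0.109% and 0.0484% of counts in the same Crtc1+/+ libraries and 0.01% and 0.00113% in those labelled Crtc1-/-. Nr2f6, at chr8:71374118-71381967, measured 68.2 and 61.2 against 57.7 and 80.7 CPM, and its log2 fold change was 0.10 (SE 0.30, adjusted p = 0.839). Nr2f1 and Nr2f2, which encode the COUP transcription factors, had log2 fold changes of 0.78 and -0.21, and Nr2c1 and Nr2c2, the testicular receptors, -0.62 and -1.39, where Nr2c2 ranged from 0.605 to 7.83 CPM. Ppard, which encodes PPARδ, measured 55.1 and 54.1 against 63.4 and 41.5 CPM (-0.06, SE 0.32, adjusted p = 0.912). Rora had a log2 fold change of 0.82, Vdr -0.94 and Nr0b1 -0.19, and Nr0b1 was at 0 to 1.54 CPM with no order between groups. Esr2 was at 0.867 and 1.82 CPM in Crtc1+/+ eWAT against 0 and 0.208 CPM, and Esrrb, Hnf4g and Pgr did not pass the expression filter.

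The NR4A receptors, immediate early genes and known CREB targets, were not called in either tissue. Nr4a1 measured 29.4 and 31.3 CPM in Crtc1+/+ eWAT and 36.1 and 14.6 CPM in eWAT labelled Crtc1-/-, so the latter lay on both sides of the former (-0.26, SE 0.50, adjusted p = 0.739). Nr4a2 measured 2.02 and 3.16 against 0.934 and 2.22 CPM, and Nr4a3 measured 1.11 and 1.3 against 2.31 and 2.15 CPM (0.89, SE 0.62, adjusted p = 0.348). In liver Nr4a1 measured 1.23 and 1.63 against 1.42 and 1.23 CPM, and the other 2 had too few counts to be tested.

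**Figure D4:**
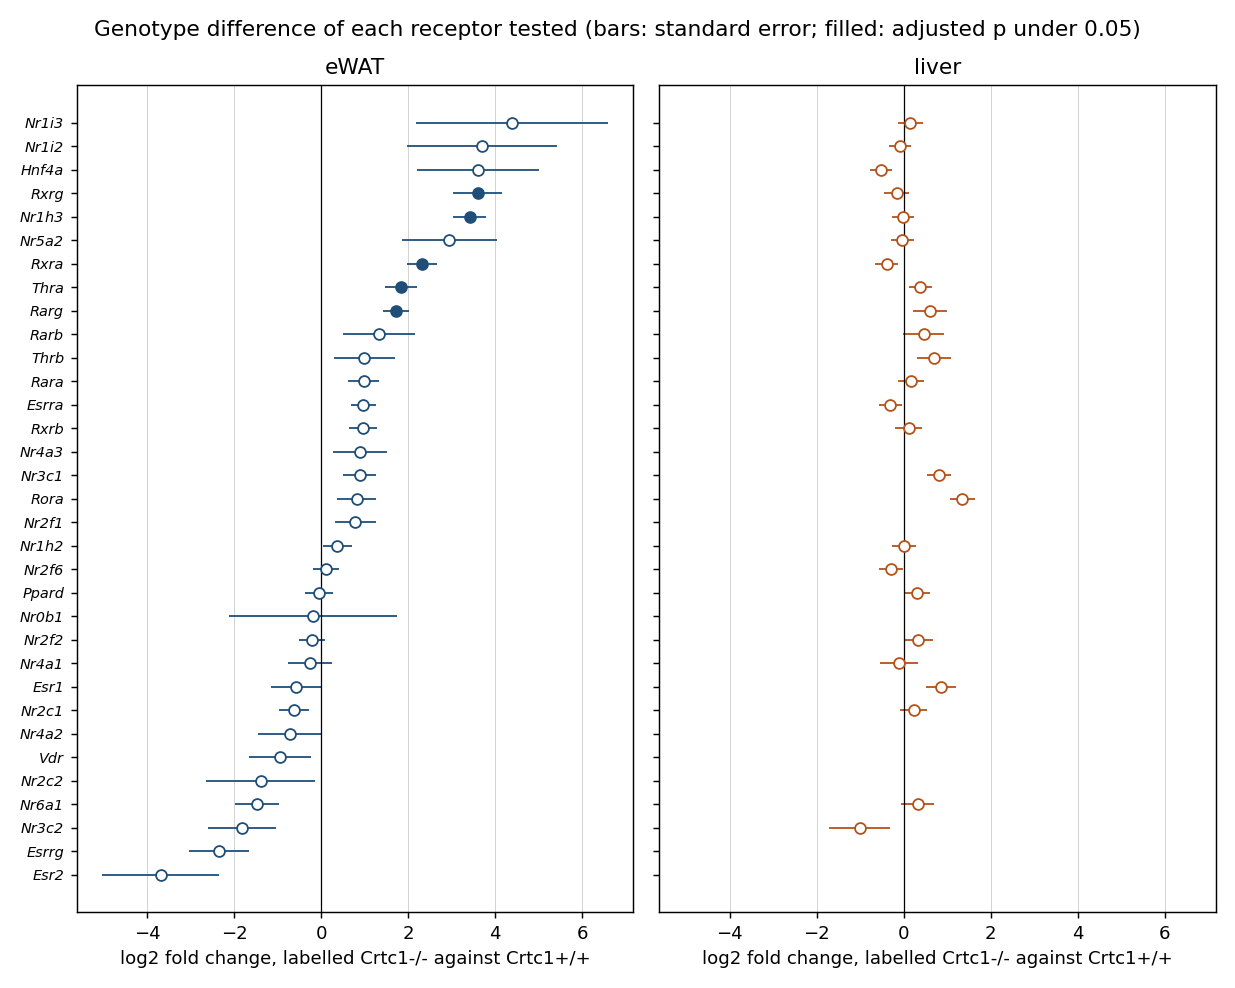
Log2 fold change (points) and standard error (bars) by labelled Crtc1 genotype for the receptors tested, in eWAT (left) and liver (right) on the same axis; filled points passed an adjusted p under 0.05. The 5 filled points are all in eWAT and all above 0, from 1.71 for Rarg to 3.60 for Rxrg.

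In liver 25 receptors could be tested by genotype and 0 were called by edgeR, against 0.0854% of all 11707 genes. At an unadjusted p under 0.05 there were 3 receptors, or 12%, against 17.3% of all genes, and DESeq2 called 1. The 3 were Rora, Nr3c1 and Esr1, each with a higher point estimate in the libraries labelled Crtc1-/-. Rora, RORα, which acts on clock and lipid genes and lies at chr9:68653404-69388246, measured 4.42 and 5.19 CPM in Crtc1+/+ liver against 11.5 and 13.1 CPM. Its log2 fold change was 1.35 (SE 0.29) with an adjusted p of 0.121 by edgeR, and over 14 alternatives the estimate lay between 0.54 and 1.46, the adjusted p lay between 0.00143 and 0.679, and 3 alternatives called it. Rora was also the only receptor past the threshold of the study in liver, which 4.27% of all genes passed. Nr3c1 measured 9.5 and 11.9 against 17.1 and 20.3 CPM (0.81, SE 0.27, adjusted p = 0.212), and Esr1 measured 5.08 and 7.4 against 14.3 and 8.4 CPM (0.86, SE 0.35, adjusted p = 0.26). Without the first liver library labelled Crtc1-/-, Nr3c1, Rarg, Rora and Thrb were called, but calls over all genes rose as well. That fit leaves 1 library in the group. Over 14 alternatives the estimate ran from 0.55 to 0.96 for Nr3c1, -0.07 to 1.08 for Rarg and 0.19 to 1.1 for Thrb.

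None of the receptors most abundant in liver was called by genotype there by edgeR. Nr1h3 measured 175 and 152 against 163 and 162 CPM, a log2 fold change of -0.01 (SE 0.25). Hnf4a measured 557 and 614 against 382 and 437 CPM, with no overlap between groups (-0.52, SE 0.25, adjusted p = 0.315). Rxra measured 422 and 424 against 373 and 274 CPM, also with no overlap (-0.39, SE 0.26, adjusted p = 0.459). Nr1i3 measured 99.5 and 89.8 against 85.1 and 126 CPM, and Nr2f6 110 and 81.1 against 87.9 and 68.3 CPM, and both had overlapping groups. The median over the 25 receptors was 0.16 on the log2 scale and 0 over all genes tested. Exons of Nr1i3 share 74.9% of their bases with Tomm40l, and those of Nr2f6 share 54.4% with Ocel1, in each case on the opposite strand, so their counts are uncertain without strand.

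Whether the genotype difference itself differed between tissues was tested as an interaction in a fit of all 8 libraries. It was called for 3 of 33 receptors, or 9.09%, against 6.94% of all 15587 genes, and in each the difference was greater in eWAT (3.78% of all genes in that direction, 3.16% in the other). The difference of log2 fold changes was 3.64 for Rxrg (SE 0.50, adjusted p = 0.0123 by edgeR), 3.34 for Nr1h3 (SE 0.49, adjusted p = 0.0141) and 2.64 for Rxra (SE 0.54, adjusted p = 0.0348). For Thra it was 1.34 (adjusted p = 0.0902) and for Rarg 1.01 (adjusted p = 0.275), so a difference between tissues was not shown for these 2. Without the second eWAT library labelled Crtc1-/- the same 3 were called. Over 17 alternatives, with each library left out among them, the difference ran from 2.6 to 4.34 for Rxrg, 3.04 to 3.73 for Nr1h3 and 2.32 to 2.96 for Rxra. The calls were lost without the second Crtc1+/+ eWAT library or any liver library, and calls over all genes fell there as well. Without the first Crtc1+/+ eWAT library Nr1h3 and Rxrg stayed called. Without the first eWAT library labelled Crtc1-/- calls rose for receptors and for all genes.

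Between tissues, 18 of 33 receptors differed in Crtc1+/+ mice (54.5% against 54.9% of all genes), 8 higher in eWAT (35% of all genes) and 10 lower (19.8%). Those higher were Esr2, Nr2f1, Nr4a1, Nr4a3, Ppard, Rarg, Thra and Vdr, and those lower were Esrra, Hnf4a, Nr1h3, Nr1i2, Nr1i3, Nr2f6, Nr5a2, Rara, Rxra and Rxrg. Nr4a1 was higher by 3.19 on the log2 scale (SE 0.43, adjusted p = 0.00182 by edgeR) and Nr1h3 lower, at -4.27 (SE 0.38, adjusted p = 0.000588). In the mice labelled Crtc1-/- 10 differed (30.3% against 27.8%), 7 higher (18.9% of all genes) and 3 lower (8.89%). The 7 were those of the Crtc1+/+ comparison other than Esr2, and Thra (2.31, SE 0.29) and Rarg (2.94, SE 0.41) were among them. The 3 lower were Esrra, Nr2f6 and Nr6a1. The count of 10 became 3 or 4 without the first or the second liver library labelled Crtc1-/-, and 5 or 16 without the first or the second eWAT library of that label. It was also lower without the second Crtc1+/+ eWAT library, and calls over all genes moved the same way in each of these fits. Rxrg, at -3.60 in Crtc1+/+ mice, was at 0.04 (SE 0.34) in those labelled Crtc1-/-.

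These tissue comparisons rest on the scaling of libraries of unlike composition. Scaling by library size alone in place of TMM moved the median of all genes from 0.61 to 2 in Crtc1+/+ mice and from 0.20 to 1.33 in those labelled Crtc1-/-. The split then became 18 higher and 8 lower in Crtc1+/+ mice, and 11 higher and 0 lower in those labelled Crtc1-/-. Of the receptors called under TMM, Rara in Crtc1+/+ mice went from -1.24 to 0.16 and Esrra in those labelled Crtc1-/- from -0.98 to 0.12, so the direction of both depends on the scaling. Nr4a3 in Crtc1+/+ mice, 3.22 under TMM, was at -0.18 and -0.72 with limma on log2(FPKM + 1) and log2(FPKM + 0.1). Nr1h3, Nr5a2, Rxra, Rxrg and Esrra (lower) and Nr4a1 and Ppard (higher) were called in Crtc1+/+ eWAT in all 17 alternatives.

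Coregulators and target genes were read from lists for the same receptors, with counts that refer to eWAT first. Of 15 coactivators 1 was higher and 0 lower, against 6.65% and 5.54% of all genes. It was Helz2, a PPAR-binding helicase, at 16.3 and 12.5 CPM in Crtc1+/+ eWAT and 122 and 125 CPM in eWAT labelled Crtc1-/- (3.10, SE 0.30, adjusted p = 0.0169 by edgeR). Of 9 corepressors 0 were called by edgeR, with 3 at an unadjusted p under 0.05, as were 33.3% of all genes. The medians of the 2 lists were 0.13 and 0.06 against -0.05 over all genes. Of 9 tested nuclear receptors outside the 36, 2 were higher and 1 lower, beside the same shares of all genes. Their median was 2.02, and with each eWAT library left out in turn it ran from -0.21 to 2.42. None was called without either Crtc1+/+ library, as for all genes. Pparg, the adipocyte regulator, measured 14.5 and 24.1 against 254 and 188 CPM (3.52, adjusted p = 0.0184), and the clock repressor Nr1d1 59.8 and 43.1 against 294 and 268 CPM (2.45, adjusted p = 0.0215).

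Of the PPAR targets, 6 of 9 were higher in eWAT and 0 lower, with a median of 3.66. Angptl4, a lipoprotein lipase inhibitor, measured 28.6 and 73.3 against 1340 and 1690 CPM (4.89, adjusted p = 0.0221), Fabp4, a fatty acid binding protein and itself an adipocyte marker, rose by 4.14 (adjusted p = 0.0409), and Plin2, a lipid droplet protein, by 4.05 (adjusted p = 0.017). Of the glucocorticoid receptor targets, 7 of 14 were higher and 0 lower, with a median of 2.24. Pck1, a gluconeogenic enzyme, rose by 4.63 (adjusted p = 0.026) and Dusp1, a MAP kinase phosphatase, by 4.09 (adjusted p = 0.0172). Angptl4 is on both lists. Over all genes 6.65% were higher. With each eWAT library left out in turn, the medians ran from 3.06 to 3.89 for the PPAR targets and from 1.62 to 2.4 for the glucocorticoid receptor targets. Without either Crtc1+/+ library no gene of these lists was called, as was the case for all genes.

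The LXR targets had 2 of 12 higher, Mylip, a ligase for the LDL receptor (1.88, adjusted p = 0.034), and Abcg1, a sterol exporter (1.68, adjusted p = 0.0275), with a median of 1.78. The RAR targets had 2 of 7 higher, Dhrs3, which reduces retinal (2.60, adjusted p = 0.0225), and Tgm2, a transglutaminase (2.46, adjusted p = 0.0339). Of the oestrogen-related receptor targets 1 of 10 was higher, Acadm, an enzyme of fatty acid oxidation (1.92, adjusted p = 0.0394). Of 7 thyroid hormone receptor targets 0 were called by edgeR, with 6 at an unadjusted p under 0.05, against 33.3% of all genes. Of the vitamin D receptor targets only 2 were tested, and Trpv6, a calcium channel, was lower at 67.6 and 64.6 against 1.1 and 0 CPM (adjusted p = 0.0417). The counts called at an adjusted p under 0.05 stand beside 6.65% of all genes higher and 5.54% lower. Without the first library labelled Crtc1-/- the medians were 1.9 for the LXR, 0.94 for the RAR, 1.39 for the thyroid hormone receptor and 0.72 for the oestrogen-related receptor targets. Calls rose there in these lists and over all genes, and included lower RAR targets. Without the second, the LXR median was 0.81. Without either Crtc1+/+ library 0 genes of these lists were called, as was the case for all genes.

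The lists of hepatocyte genes moved with the second library labelled Crtc1-/-. The HNF4A targets had a median of 4.09 with 0 of 11 called by edgeR and 0 at an unadjusted p under 0.05 (33.3% of all genes). Without that library their median was -1.26, and without the first library labelled Crtc1-/- it was 5.1. The CAR and PXR targets had a median of 3.39 and 1 of 11 higher, against 6.65% of all genes. It was Por, the electron donor of cytochromes P450, at 142 and 125 against 523 and 885 CPM (2.40, adjusted p = 0.0327 by edgeR). Without the second library labelled Crtc1-/- the median of this list was -1.37, and without the first it was 3.71. Without either Crtc1+/+ library no gene of this list was called.

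In liver a single gene of these lists was called, Mt2, a metallothionein and glucocorticoid target, at 74.1 and 83.5 CPM in Crtc1+/+ liver against 705 and 354 CPM (2.75, SE 0.36, adjusted p = 0.0418 by edgeR). Its log2 fold change was 2.65 without the first and 2.83 without the second Crtc1+/+ library, and the call was lost in both cases. Without the first or the second liver library labelled Crtc1-/- further genes of these lists were called, in both directions. Calls over all genes rose in those fits as well. The medians in liver ran from -0.66 for the CAR and PXR targets to 0.59 for the nuclear receptors outside the 36. The libraries of a group came from separate mice, and the sources used here do not state whether the same replicate number marks the same mouse in both tissues.

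**Figure D5:**
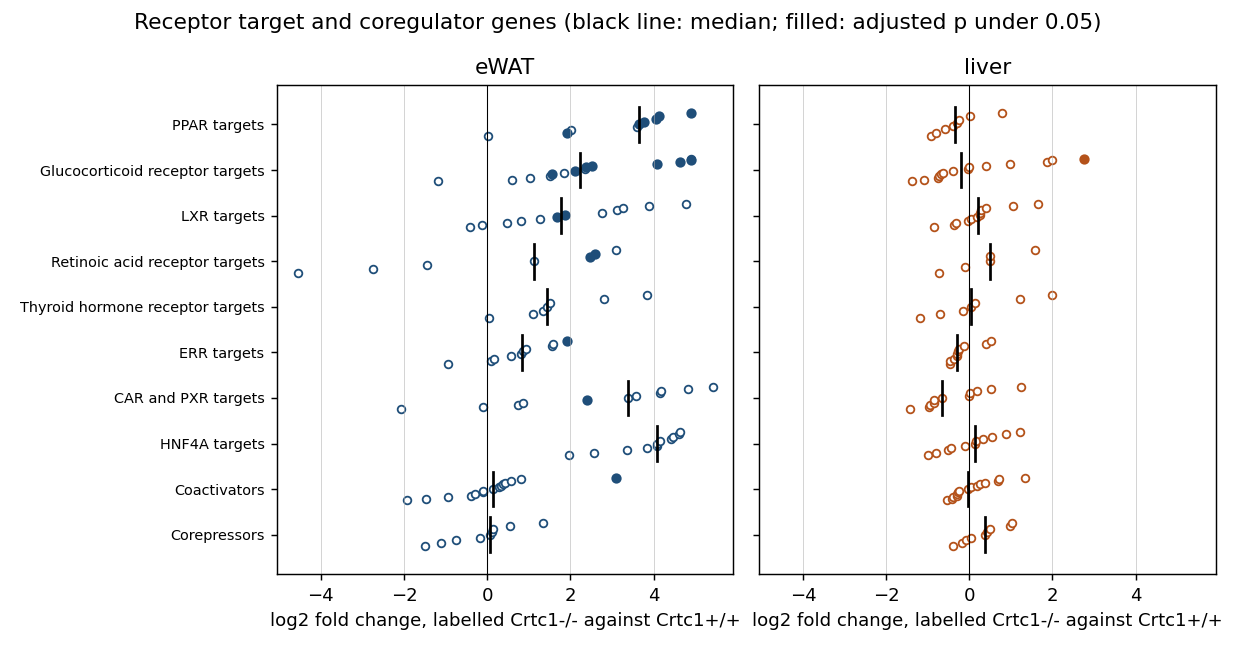
Log2 fold change by labelled Crtc1 genotype of each tested gene of 10 receptor target and coregulator lists, in eWAT (left) and liver (right) on the same axis; filled points passed an adjusted p under 0.05 and black lines are list medians. In eWAT 6 of 9 PPAR targets and 7 of 14 glucocorticoid receptor targets were higher, while the HNF4A targets had a median of 4.09 with 0 called.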

How the data were processed

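RNA-seq libraries of liver and eWAT, 2 for each labelled genotype, were sequenced at BGI. The authors deposited estimated counts per gene, not normalized, and FPKM, which divide by transcript length and by library size, for the same 19348 genes. The submitters' processing notes name HISAT, Bowtie2 and GRCm38.p6 without a role, and the counting tool, annotation and strand setting are not given in the sources used here. Between 5.44% and 9.98% of a library's counts were not whole, and all were rounded. Totals of 16560085 to 19721481 counts keep counting error small for abundant receptors.

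Genotype was tested within each tissue, and the interaction and tissue differences in 1 fit of 8 libraries, by the quasi-likelihood test of edgeR 4.0.16 (R 4.3.3) after filterByExpr and TMM scaling, and p-values were adjusted by Benjamini-Hochberg across the genes tested. CPM were scaled by TMM within tissue. Levels were compared between genes only on FPKM. Alternatives were DESeq2 1.42.0, limma 3.58.1 on quantile-normalized log2(FPKM + 1) and log2(FPKM + 0.1), other scalings and filters, removal of epididymis genes, the replicate block, all 8 libraries in 1 fit and each library left out. The tests were first tested on simulated data with known differences of several sizes. Directions were recovered, but in eWAT and for the interaction edgeR called few or none of the smaller known differences at an adjusted p under 0.05, and the largest size was added after that was seen. A receptor not called there is therefore not shown to be unchanged.

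The 36 members, the coregulator, target and marker lists and the tests were chosen with earlier results of these data known. Every receptor is named. Given in full are those called by genotype or interaction, those past the threshold of the study and the 5 with the highest mean FPKM in each tissue. List genes are named where called in liver, and in eWAT up to 3 a list with the largest change among those called with a mean of at least 1 CPM and no overlap. Figures were drawn with matplotlib. Promoter sequences came from RefSeq (GRCm38.p6), gene coordinates from RefSeq on the same build, and exon overlaps from GENCODE vM21. The table held Plin2 under 2 numbers, resolved by Gene number, and Nr2e1, Nr2e3 and Cyp24a1 were not analysed here. The values of 1 gene of the list of receptors outside the 36 are not reported here. Genes are listed by symbol and NCBI Gene number.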

Additional observations from a re-analysis of the deposited data

Results flagged for a closer look

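In 3 receptors the genotype difference in eWAT differed from that in liver by the interaction test of edgeR. The difference of log2 fold changes was 3.64 for Rxrg, 3.34 for Nr1h3 and 2.64 for Rxra, each with 4 libraries a tissue. In liver the same receptors had log2 fold changes of -0.16, -0.01 and -0.39. Adipocyte markers took 4.62% and 2.14% of counts in the eWAT libraries labelled Crtc1-/- against 0.278% and 0.457% in Crtc1+/+ eWAT, and between 0.0448% and 0.0571% in liver, and the part of that difference in the result was not tested.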

How the results depend on the processing

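The number of receptors called by genotype in eWAT, 5 by edgeR with TMM, was 12 with DESeq2 (10 higher and 2 lower), 3 with library-size scaling and 3 with limma on log2(FPKM + 0.1). It was 0 with the replicate block, under which 0 of all genes were called and the 5 receptors had adjusted p-values of 0.0543 to 0.0594. Those past the threshold of the study, 5, became 8 with DESeq2, 3 with library-size scaling and 3 with limma on log2(FPKM + 0.1). In liver the 0 called became 1 with DESeq2 and 1 with no expression filter, and the 1 past the threshold of the study became 0 with limma on log2(FPKM + 1). The 10 receptors called between tissues in mice labelled Crtc1-/- became 16 with DESeq2. With each library left out in turn, the counts ranged from 0 to 9 (eWAT) and from 1 to 9 (eWAT, threshold of the study), from 0 to 4 and from 0 to 4 in liver, from 0 to 8 for the interaction and from 3 to 16 between tissues in mice labelled Crtc1-/-. The cause of these differences was not tested, although a fit without 1 library has fewer samples. Over all genes, 1875 were called in eWAT, against 4620 with DESeq2, 3861 with all 8 libraries in 1 fit and from 0 to 3073 with a library left out. In liver 10 were called, against 311 with DESeq2, 301 with no expression filter, 82 with the replicate block, 0 with limma or with all 8 libraries in 1 fit and from 1 to 1507 with a library left out. For the interaction 1081 were called, against 2056 with DESeq2, 705 with library-size scaling, 2533 and 2390 with limma and from 0 to 2261 with a library left out. Between tissues in mice labelled Crtc1-/- 4330 were called, against 7127 with library-size scaling and from 1511 to 5962 with a library left out, and in Crtc1+/+ mice 8552, against 4285 to 8872. The replicate block left 2 of the 3 receptors of the interaction called (Nr1h3 and Rxrg). Deviations of same-numbered libraries correlated at 0.05 between the liver groups, 0.01 between the eWAT groups and 0.04 to 0.15 across tissues, with 2 libraries a group, so a pairing by replicate number was neither stated by the sources nor settled by these values. The other 75 counts stayed within 1.5 times the main count. Of the values of receptors given in full, 377 kept their direction and their side of the threshold, 38 kept their direction and lost the call, 10 gained it and 25 changed sign or came to 0, none of them called. By genotype in eWAT, Nr1h2 (0.37) was at -0.03 and -0.03 with limma on log2(FPKM + 1) and log2(FPKM + 0.1), and Nr2f6 (0.10) at -0.18 and -0.19 with the same, -0.11 with upper-quartile and -0.24 with library-size scaling. In liver Nr1h3 (-0.01) was at 0 with DESeq2, 0.08 with upper-quartile scaling, 0.05 with library-size scaling and 0.07 with a mean count of at least 50, and Nr2f6 (-0.29) at 0 with both limma fits. For the interaction the limma fits gave -0.08 and -0.08 for Nr1h2 (0.26), -0.20 and -0.21 for Nr2f6 (0.33) and, on log2(FPKM + 0.1), 0.44 for Rora (-0.58). With a library left out, the range in eWAT was -1.79 to 6.56 for Nr1i3 and -0.19 to 0.33 for Nr2f6. In liver it was -0.21 to 0.21 for Nr1h2, -0.12 to 0.09 for Nr1h3, -0.16 to 0.43 for Nr1i3 and -0.07 to 1.08 for Rarg, and for the interaction -2.02 to 6.32 for Nr1i3. Depth limits the receptors near 3 counts, such as Hnf4g, and 2 libraries a group limit the others.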
